A study of Homo sapiens with 6 samples.

Results

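CC chemokines are small secreted proteins with a pair of adjacent cysteines near the amino terminus, and 9 of their genes were compared between cells with lowered DAXX and control cells. The members CCL2, CCL5, CCL7, CCL8, CCL11, CCL20, CCL22, CCL26 and CCL28 were taken by gene symbol from array transcript clusters annotated with exactly 1 symbol, keeping the brightest cluster of each gene. All 9 had a value, among 22465 genes tested. CCL2 rose 32.4-fold and CCL20 4.56-fold in DAXX-depleted cells, and the other 7 genes did not pass the test.

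CC chemokines act through G protein-coupled receptors on leukocytes and steer their migration along gradients bound to glycosaminoglycans. CCL2, CCL7 and CCL8 are monocyte chemoattractants, CCL11 and CCL26 are eotaxins, which attract eosinophils through CCR3, and CCL5 attracts T cells and monocytes. CCL20 is the ligand of CCR6 on Th17 cells and immature dendritic cells, CCL22 binds CCR4 on Th2 and regulatory T cells, and CCL28 is an epithelial ligand of CCR10 and CCR3. In epithelial and stromal cells, IL-1 and TNF induce CCL2 and CCL20 through NF-kB, whereas IL-4 and IL-13 induce the eotaxins through STAT6. Tumour-derived CCL2 is known in breast cancer for the recruitment of monocytes and macrophages.

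The cells were MDA-MB-231, an established human triple-negative breast cancer line, which had received by lentivirus either a scrambled short hairpin RNA (shControl, 3 arrays) or a hairpin against DAXX (shDAXX, 3 arrays). DAXX is a histone chaperone and SUMO-binding transcription regulator. Both groups were selected with 2 µg/ml puromycin and grown for 24 hours in complete medium per the labels. The study's methods describe a single DAXX hairpin, expressed from the H1 promoter and aimed at the coding sequence, so that effects of the hairpin and of DAXX loss cannot be told apart, and the 3 replicates, called biological in the labels, are not said to come from separate transductions. The 6 array medians lay between 4.96 and 5.07 (log2). DAXX itself was 7.47 ± 0.032 in shControl and 6.66 ± 0.042 in shDAXX (log2 signal, SD, n = 3; limma adjusted p = 4.9e-04), without overlap. The line's markers VIM, CD44, EGFR, AXL and CAV1 had mean log2 signals of 11.98 to 16.01 in shControl, while ESR1 (4.53), PGR (4.04) and FOXA1 (5.22) lay near the table's median of 4.99. GATA3, a luminal factor, was at 7.06 in shControl.

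Promoter windows from RefSeq (GRCh38.p14, 250 bases before to 50 after the transcription start) were given for 6 of the 9 members (CCL7, CCL8, CCL20, CCL22, CCL26 and CCL28, and not CCL2, CCL5 or CCL11), and 4 are shown because they set a gene that rose, CCL20, beside 3 that did not pass. CCL22 is shown as the other member window with the same NF-kB match, and CCL7 and CCL8 as neighbours of CCL2 on chromosome 17. Each is written 5′ to 3′ on the coding strand, with matches to the NF-kB consensus (either strand) and the TATA box TATAAA in capitals. The windows are chr2:227813592-227813891 for CCL20, chr16:57358533-57358832 for CCL22, chr17:34269971-34270270 for CCL7 and chr17:34319185-34319484 for CCL8, all on the plus strand.
CCL20: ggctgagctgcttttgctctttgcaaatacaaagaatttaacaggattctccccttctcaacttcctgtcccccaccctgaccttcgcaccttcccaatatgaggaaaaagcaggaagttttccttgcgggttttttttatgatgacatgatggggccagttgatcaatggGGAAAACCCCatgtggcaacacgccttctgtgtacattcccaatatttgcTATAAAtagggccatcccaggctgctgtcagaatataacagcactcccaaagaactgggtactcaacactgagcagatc
CCL22: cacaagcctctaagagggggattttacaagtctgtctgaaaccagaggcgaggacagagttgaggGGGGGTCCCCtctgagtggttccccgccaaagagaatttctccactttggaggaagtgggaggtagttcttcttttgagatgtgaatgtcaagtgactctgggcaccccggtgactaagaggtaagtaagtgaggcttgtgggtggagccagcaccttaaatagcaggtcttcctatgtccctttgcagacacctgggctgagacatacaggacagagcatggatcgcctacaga
CCL7: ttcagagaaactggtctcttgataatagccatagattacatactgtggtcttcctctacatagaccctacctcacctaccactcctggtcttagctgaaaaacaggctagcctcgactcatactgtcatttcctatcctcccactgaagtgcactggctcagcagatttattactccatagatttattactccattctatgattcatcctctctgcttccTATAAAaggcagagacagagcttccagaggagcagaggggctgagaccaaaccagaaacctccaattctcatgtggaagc
CCL8: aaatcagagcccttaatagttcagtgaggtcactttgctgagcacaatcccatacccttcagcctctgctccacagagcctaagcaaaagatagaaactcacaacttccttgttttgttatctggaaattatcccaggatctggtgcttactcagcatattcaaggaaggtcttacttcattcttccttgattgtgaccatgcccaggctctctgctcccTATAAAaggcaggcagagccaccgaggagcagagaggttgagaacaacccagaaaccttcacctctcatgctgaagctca

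The NF-kB consensus occurred in the windows of CCL20, starting 79 bases before the transcription start, and of CCL22, starting 185 bases before it. It was found in 5.9% of all 35116 promoter windows. The TATA box stood 29 bases before the start of CCL20 and 30 bases before those of CCL7 and CCL8, and 11.5% of windows held it on either strand. Neither CCL7 nor CCL8 had an NF-kB match, but each had 1 match to the STAT motif TTCNNNGAA, at 250 and 91 bases before the start (7.7% of windows). CCL7 also had 1 match to the AP-1 motif TGANTCA, 51 bases before the start, which 7.7% of windows hold. The C/EBP motif TTNNGNAA matched in windows of CCL26 and CCL28 and not in those of the other 4 members searched (36.8% of windows), and the STAT motif with a spacer longer by 1 base, the spacing preferred by STAT6, matched in none of the 6 members' windows (6.4% of windows). Searches covered both strands, and the NF-kB and TATA matches did not overlap other motifs. Such matches are descriptions of the sequence. Binding was not measured.

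CCL2, the principal monocyte chemoattractant and ligand of CCR2, changed most among the members. Its log2 signals were 6.64, 7.16 and 6.96 in shControl replicates 1 to 3 and 11.97, 12.05 and 11.80 in shDAXX replicates 1 to 3. The lowest shDAXX array therefore lay 4.64 above the highest shControl array. Means were 6.92 ± 0.26 in shControl and 11.94 ± 0.13 in shDAXX (SD, n = 3). The log2 fold change was 5.02 (SE 0.14, 95% interval 4.69 to 5.35, limma adjusted p = 1.4e-05), the 3rd largest rise among the 22465 genes. In these bulk samples, more cells with the transcript and more transcript per cell cannot be told apart.

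CCL20, the CCR6 ligand, was dim in control cells and rose as well. Its log2 signals were 4.45, 4.35 and 4.74 in shControl, below the table's median of 4.99, and 6.8, 6.72 and 6.59 in shDAXX. The groups were 1.85 apart at their nearest arrays, with means of 4.51 ± 0.20 and 6.70 ± 0.11 (SD, n = 3). The log2 fold change was 2.19 (SE 0.11, 95% interval 1.92 to 2.46, limma adjusted p = 1.1e-04), the 13th largest rise. Since RMA compresses differences near background, the fold change of a gene that starts dim can be understated. The highest shDAXX array was replicate 2 for CCL2 and replicate 1 for CCL20, so that the same array did not lead in both.

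**Figure D1:**
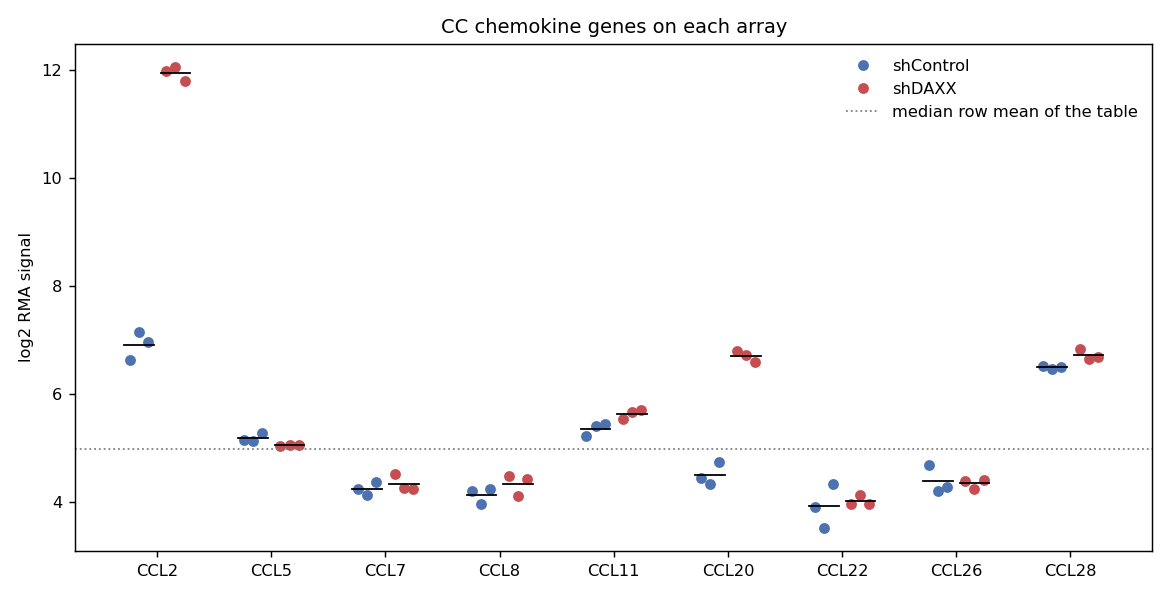
Log2 RMA signal of each of the 9 CC chemokine genes on each of the 6 arrays (points, replicates 1 to 3 from left to right within a group), with group means as bars and the table's median row mean of 4.99 as a dotted line. CCL2 and CCL20 are set widely apart between shControl and shDAXX, and the other 7 genes differ by at most 0.28 between group means.

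CCL11, an eotaxin encoded near CCL2, had the next largest difference. Its log2 signals were 5.22, 5.42 and 5.45 in shControl and 5.55, 5.67 and 5.71 in shDAXX, with every shDAXX array above every shControl array by 0.10 or more. The log2 fold change of 0.28 (SE 0.086, 95% interval 0.08 to 0.48) had an unadjusted p of 0.014 and did not pass after adjustment over all genes (limma adjusted p = 0.098).

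CCL28, the mucosal epithelial chemokine, behaved likewise. It had log2 signals of 6.53, 6.46 and 6.51 in shControl and 6.83, 6.66 and 6.68 in shDAXX, without overlap. Its log2 fold change was 0.22 (SE 0.071, 95% interval 0.06 to 0.39, limma adjusted p = 0.106). It passed after quantile normalization (0.29, limma adjusted p = 0.040) and under no other setting tried.

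CCL5, also called RANTES, differed in the opposite direction by less. Its log2 signals were 5.15, 5.14 and 5.29 in shControl and 5.05, 5.07 and 5.07 in shDAXX, all 3 of the latter lower. The log2 fold change of -0.13 (SE 0.067, 95% interval -0.29 to 0.03, limma adjusted p = 0.300) did not pass.

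The monocyte chemoattractants CCL7 and CCL8 stayed dim in both groups. CCL7 had log2 signals of 4.24, 4.13 and 4.37 in shControl and 4.53, 4.26 and 4.24 in shDAXX, and CCL8 of 4.21, 3.97 and 4.24 against 4.49, 4.12 and 4.43. The groups overlapped for each. Log2 fold changes were 0.10 for CCL7 (95% interval -0.15 to 0.34, limma adjusted p = 0.649) and 0.21 for CCL8 (95% interval -0.08 to 0.50, limma adjusted p = 0.369).

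CCL22 and CCL26 were the remaining dim members. CCL22, a macrophage-derived ligand of CCR4, had log2 signals of 3.91, 3.53 and 4.35 in shControl and 3.97, 4.13 and 3.97 in shDAXX. All shDAXX arrays fell inside the shControl range, and the log2 fold change of 0.09 had a 95% interval of -0.36 to 0.55 (limma adjusted p = 0.833). CCL26, an eotaxin, had log2 signals of 4.69, 4.22 and 4.28 in shControl and 4.40, 4.25 and 4.41 in shDAXX, a log2 fold change of -0.04 with a 95% interval of -0.35 to 0.27 (limma adjusted p = 0.890). Both intervals include 0, so a change of any size inside them is not excluded. They are not limits of detection.

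Of the 9 members, 2 were called higher and 0 lower, where 4.3% of all genes tested were called higher and 5.6% lower, and 4 members had an unadjusted p under 0.05, where 23.6% of all genes did. The methods' t-test after adjustment also called 2 members. The groups did not overlap for 5 members (4 higher, 1 lower), against 28.7% of all genes in either direction and 14% upwards. The median log2 fold change was 0.21 over the members and 0.007 over all genes. The median SD within groups was 0.16 for the members and 0.11 over all genes. In 5 members the brighter group was above the table's median row mean, and 4 members (CCL7, CCL8, CCL22 and CCL26) stayed below it in both groups.

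The profile of CCL2 over the 6 arrays, centred on the shControl mean, was nearest to those of the CXC chemokine genes CXCL8 and CXCL1 and of the adhesion molecule gene ICAM1, with root mean square distances of 0.20, 0.38 and 1.07 on the log2 scale. CXCL8 had log2 signals of 9.65, 9.82 and 9.61 in shControl and 14.85, 14.76 and 14.95 in shDAXX. The same measure for CCL20, added after its values were seen, gave PTGFRN (0.13), which encodes a tetraspanin-associated membrane protein, the cytokine gene IL6 (0.16) and PPP4R4 (0.17), a protein phosphatase regulatory subunit gene. IL6 had log2 signals of 6.99, 6.98 and 7.03 in shControl and 8.99, 9.17 and 8.98 in shDAXX. Closeness on this scale requires a rise of like size and carries no test.

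CCL2, CCL7, CCL11 and CCL8 follow each other on chromosome 17, which allowed a comparison within a gene cluster. The log2 fold change of CCL2 exceeded that of CCL7 by 4.92, of CCL11 by 4.74 and of CCL8 by 4.81, and that of CCL20, a gene of chromosome 2, by 2.83. Over 5 such pairs, among them CCL20 over CCL28 (1.97), each two-sided exact permutation p over 3 against 3 arrays was 0.10, also after adjustment, the smallest that this design allows. The 95% interval of CCL2 did not overlap those of its 3 neighbours in the cluster. Each pair began with CCL2 or CCL20, the members called higher, so neither these p-values nor the intervals are further support. Among the 10 measured protein-coding genes on each side of the cluster, 0 of 20 were higher by limma and 6 were lower. Over all genes, 4.3% were called higher and 5.6% lower. The 0 higher calls among 20 are near that share, while the 6 lower calls among 20 are above it. At an unadjusted p under 0.05, 0 of the 20 were higher, and RHOT1 (-0.20) and MYO1D (-0.23) were lower besides those 6. The 23.6% of all genes with such a p counts both directions and is not the share for rises alone. The median log2 fold change of the 20 was -0.17, against 0.007 over all genes. The lower genes were LRRC37B (-0.48), C17orf75 (-0.28) and the proteasome subunit gene PSMD11 (-0.33) on the side of CCL2, and ZNF830 (-0.41), the DNA ligase gene LIG3 (-0.62) and the ubiquitin ligase gene RFFL (-0.80) on the side of CCL8. The chemokine gene CCL1, next to CCL8 among the genes measured, had a log2 fold change of 0.15 and did not pass. Of all these genes only CCL2 was called higher. CCL2, CCL7, CCL8 and CCL11 are close in sequence, and whether their probes share transcripts was not tested.

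**Figure D2:**
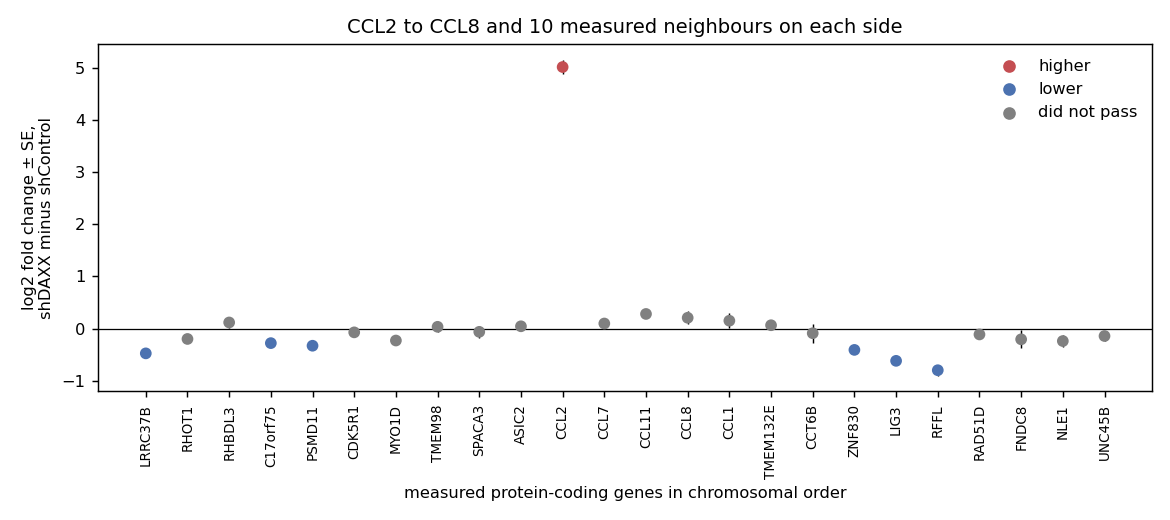
Log2 fold change (shDAXX minus shControl, points, with SE as bars, n = 3 arrays per group) of CCL2, CCL7, CCL11 and CCL8 and of 10 measured protein-coding genes on each side, in chromosomal order. CCL2 stands at 5.02, while the other genes lie between -0.80 and 0.28.

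Other CC chemokine genes gave no calls by limma. Of 18 listed, 12 had a value, with mean log2 signals of 4.20 to 5.20 in shControl and 4.18 to 5.26 in shDAXX and a median log2 fold change of -0.01. Over all genes, 9.9% passed and 23.6% had an unadjusted p under 0.05. Of these 12, 0 passed, 0 had an unadjusted p under 0.05, and 1 was called by the methods' t-test after adjustment. That gene was CCL19, a lymph node ligand of CCR7, with log2 signals of 4.63, 4.6 and 4.59 in shControl and 4.71, 4.69 and 4.70 in shDAXX. Its log2 fold change was 0.09. CCL3 followed with a log2 fold change of -0.18 (limma adjusted p = 0.536). Clusters shared by CCL3L1 and CCL3L3, by CCL4L1 and CCL4L2 and by CCL14 and CCL15 were not part of the gene table, and their log2 fold changes lay between -0.03 and 0.12.

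Receptors for CC chemokines mostly did not pass. Of 14 listed, 12 were measured, with a median log2 fold change of 0.06, and mean log2 signals of 4.11 to 6.01 in shControl. Of these, 0 rose and 1 fell, where 4.3% of all genes were called higher and 5.6% lower. The receptor that fell was CCR1, which binds CCL5 and CCL7, with log2 signals of 4.52, 4.45 and 4.44 in shControl and 4.04, 3.78 and 4.08 in shDAXX (log2 fold change -0.50, SE 0.092, limma adjusted p = 0.018). All of these are below the table's median, and the call was lost without any 1 shControl array (limma adjusted p up to 0.066) by the methods' t-test and when every transcript cluster was tested. CCR2 and CCR6, named here as the receptors of CCL2 and CCL20, had log2 fold changes of 0.04 (limma adjusted p = 0.852) and 0.10 (limma adjusted p = 0.547).

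**Figure D3:**
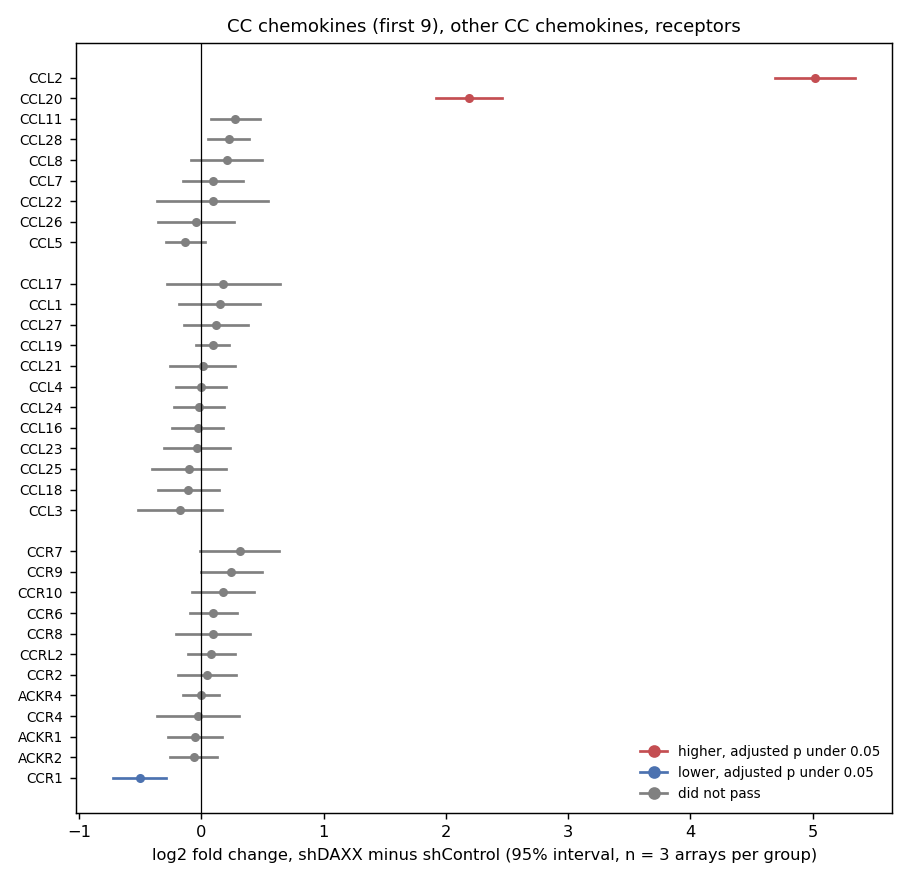
Log2 fold changes (shDAXX minus shControl, points) with 95% intervals from 3 arrays per group for the 9 CC chemokine genes (top), 12 other CC chemokines (middle) and 12 receptors (bottom). CCL2 at 5.02 and CCL20 at 2.19 lie far to the right, CCR1 at -0.50 is lower, and the rest did not pass.

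Cytokine genes and receptors known to induce members of the family changed in both directions. All 18 listed were measured, and 6 rose and 3 fell, against a background of 9.9% called in either direction. IL6 (2.05) and the IL-1 receptor ligands IL1A (1.91) and IL1B (1.61) rose most (limma adjusted p at most 0.0025). IL1A had log2 signals of 5.88, 6.31 and 5.71 in shControl and 7.47, 8.06 and 8.10 in shDAXX. The TNF receptor gene TNFRSF1A fell from 11.14, 11.31 and 10.91 in shControl to 9.80, 10.15 and 10.09 in shDAXX (log2 fold change -1.11, SE 0.13, limma adjusted p = 0.0033). The IL-17 receptor gene IL17RA (-0.38) and the IL-13 receptor gene IL13RA1 (-0.29), which pairs with IL4R, fell by less. IL13RA1 lost its call without any 1 array (limma adjusted p 0.080 to 0.118), and IL17RA without 4 of the 6 arrays taken singly (limma adjusted p up to 0.097). Among the genes that rose, IL1RAP (0.33) also lost its call without any 1 array (limma adjusted p 0.051 to 0.077). Neither IL4, IL13 nor STAT6 was called.

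NF-kB subunit and feedback genes had 7 of 12 members higher and 0 lower (median log2 fold change 0.40), where 4.3% of all genes were called higher, with 7 at an unadjusted p under 0.05 (23.6% of all genes). The largest rises were in the feedback inhibitors TNFAIP3 (2.06) and NFKBIA (1.91) and in the subunit gene REL (0.59, SE 0.067, limma adjusted p = 0.0026). REL had log2 signals of 9.84, 9.81 and 9.90 in shControl and 10.36, 10.49 and 10.48 in shDAXX. RELB (0.38) lost its call without 5 of the 6 arrays taken singly (limma adjusted p up to 0.072). NFKBIZ (0.42) lost its call without 3 of them (limma adjusted p up to 0.055). The subunit gene RELA did not pass (0.08, limma adjusted p = 0.679). Of 7 measured STAT, IRF and C/EBP factor genes, 1 rose and 0 fell, where 4.3% of all genes were called higher and 5.6% lower. An unadjusted p under 0.05 was found for 4 of the 7, where 23.6% of all genes had such a p. The gene that rose was the interferon regulatory factor gene IRF1 (0.29, limma adjusted p = 0.044). Its call was lost without any 1 array (limma adjusted p 0.084 to 0.135).

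Genes for proteins that control the decay of cytokine and chemokine mRNAs moved in opposite directions. Of 6 measured mRNA decay genes, 1 rose and 2 fell, where 4.3% of all genes were called higher and 5.6% lower. ZFP36, which encodes tristetraprolin, a protein that binds AU-rich elements, had log2 signals of 8.14, 8.43 and 8.44 in shControl and 7.44, 7.61 and 7.34 in shDAXX (log2 fold change -0.87, SE 0.11, limma adjusted p = 0.0042), without overlap. Its paralog ZFP36L1 fell by 0.57 (limma adjusted p = 0.0073), or by 0.34 when its transcript clusters were averaged (limma adjusted p = 0.043). ZC3H12A, which encodes the endonuclease regnase, rose by 0.77 (SE 0.086, limma adjusted p = 0.0025). Among 10 genes for proteases and glycosaminoglycan carriers that act on secreted chemokines, 1 rose and 0 fell, against the same shares of all genes. This was the heparan sulfate proteoglycan gene SDC4, with log2 signals of 12.24, 12.21 and 12.03 in shControl and 13.07, 13.23 and 13.22 in shDAXX (limma adjusted p = 8.1e-04).

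**Figure D4:**
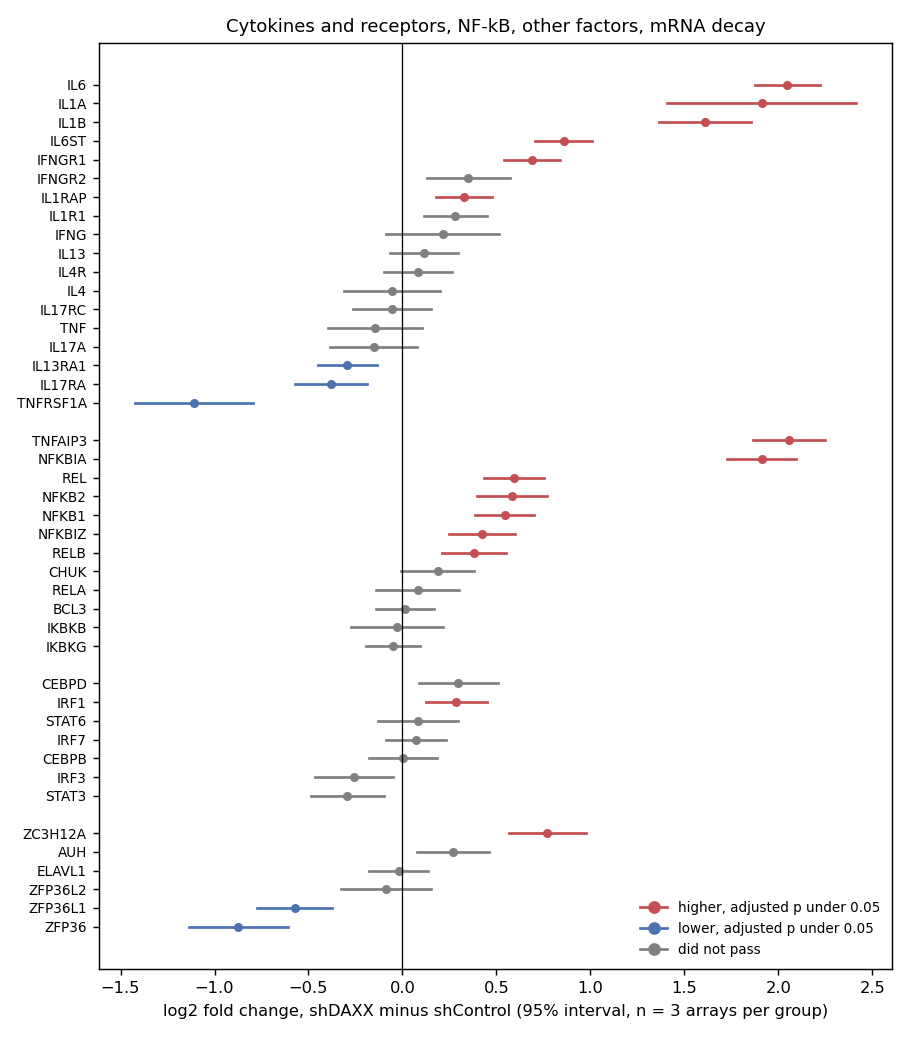
Log2 fold changes (shDAXX minus shControl, points) with 95% intervals from 3 arrays per group for cytokines and their receptors, NF-kB genes, STAT, IRF and C/EBP factors and mRNA decay genes, from top to bottom. IL6, IL1A, TNFAIP3 and NFKBIA lie near 2, and TNFRSF1A at -1.11 and ZFP36 at -0.87 are the lowest.

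Leukocytes are the usual source of many CC chemokines, so their markers were read beside these results. Of 11 leukocyte markers, 0 rose and 1 fell, where 4.3% of all genes were called higher and 5.6% lower. The mean log2 signals of these markers lay between 4.20 and 5.44 over both groups. Their summed linear signal was 298 to 331 in shControl arrays and 318 to 331 in shDAXX arrays. The marker that fell was PTPRC, a pan-leukocyte phosphatase gene (-0.29), and its call was lost without any 1 array (limma adjusted p 0.066 to 0.087). Markers of fibroblasts and endothelium had 1 of 8 higher and 0 lower, against the same shares of all genes. Their summed linear signal was 331 to 333 in shControl and 346 to 382 in shDAXX. The endothelial cadherin gene CDH5 rose by 0.37, a call lost without 5 of the 6 arrays taken singly (limma adjusted p up to 0.108). RMA signals have no true zero, so no marker can be called absent. The labels and methods name only the MDA-MB-231 line in these cultures, so such cells were no part of the design. Any contribution of theirs to the rises of CCL2 and CCL20 was not tested.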

How the data were processed

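Total RNA (200 ng per sample) of 3 shControl and 3 shDAXX cultures was hybridized to Affymetrix human transcriptome arrays, and sample titles gave group and replicate. The deposited values are log2 RMA signals, which the authors made with Affymetrix Expression Console (background correction, normalization between arrays, 1 summary per transcript cluster), and the version and genome build are not given in the sources used here. Whether the ComBat adjustment named in the study's methods was used on these arrays is not stated, and it could narrow the spread within groups.

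Of 70523 rows, 67528 were transcript clusters and 23781 of these had 1 symbol. Keeping the cluster with the highest mean left 22465 genes, named through RefSeq GRCh38.p14. limma 3.58.1 in R 4.3.3 compared the groups (two-sided, no covariates), with Benjamini-Hochberg adjustment over all genes and a threshold of 0.05. In 5 simulated tables of 22465 genes, 200 of them changed, 84.8% of 2-fold and 56.8% of 1.5-fold changes were recovered. Noise in the simulated tables was normal and independent between genes, with the SDs of genes shuffled. In the data 2224 genes were called, so these recovered shares are not the power of this comparison. With 3 arrays per group, precision is limited by their number. The limma p-values set the difference between groups against the spread within them, moderated across genes, and hold for these cultures only. Alternatives were other scalings, a filter on dim genes, other cluster rules, another variance model, the replicate block, the methods' t-test and leaving out each array. The study's methods name a fold cut and a p-value threshold for genes entering pathway analysis. Here the t-test was adjusted over all genes and no fold cut was applied.

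Members and gene lists were chosen with earlier results of these data known. The rule for named genes took all members, DAXX, at most 3 called genes in each direction from a list (2 by smallest p if it had no call), the 3 profiles nearest to CCL2 and 10 neighbours on each side of its cluster. Other genes were named after their values were seen.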

Additional observations from a re-analysis of the deposited data

How the results depend on the processing

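CCL2 (4.88 to 5.14 on the log2 scale, adjusted p at most 0.0039), CCL20 (2.11 to 2.30, adjusted p at most 0.0081) and DAXX (-0.83 to -0.72) kept their direction and call under all 14 alternatives. The filter on dim genes kept a gene if either group mean exceeded the table's median of 4.99. CCL20 (4.51 in shControl, 6.70 in shDAXX) passed that filter only through shDAXX, so its call there is no independent support. CCL28 passed after quantile normalization, which made 3 members higher instead of 2. That setting also raised the higher calls over all genes from 967 to 1427. CCL28 did not pass under any other alternative (limma adjusted p up to 0.314). Leaving out each array moved CCL22 between -0.11 and 0.30, CCL26 between -0.13 and 0.10 (0.0083 without shDAXX replicate 2) and CCR2 between -0.043 and 0.13. It moved CCL7 between 0.0033 (without shDAXX replicate 1) and 0.16, CCL8 between 0.12 (without shControl replicate 2) and 0.32, CCL5 between -0.16 and -0.082 (without shControl replicate 3) and CCL3 between -0.33 and -0.03, and CCR2 was -0.0028 after quantile normalization. None of these values passed. CCL7, CCL8, CCL22 and CCL26 had no value with the filter on dim genes. Of the 14 alternatives, 11 lost the call of IL13RA1, 10 those of IL1RAP and IRF1, and 9 that of CDH5. The counts were 8 for PTPRC, 7 for IL17RA and RELB and 4 for NFKBIZ.

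Over all genes, 967 higher and 1257 lower calls became 616 higher with equal array medians, 537 higher over every transcript cluster and 811 lower by the methods' t-test. Leaving out each array gave 515 to 609 higher and 722 to 857 lower. The cause was not tested beyond the smaller number of arrays. Of called genes 56.5% were lower, against 43.7% after quantile normalization and 53.4% to 63.1% under the others. With the replicate block, 606 genes were higher, and the block changed no member's call (CCL2 adjusted p 0.0010, CCL20 0.0049). Same-numbered arrays deviated with correlations of -0.091, 0.22 and 0.081, so the numbers were not taken as pairs.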
